A study of Mus musculus with 8 samples.

Results

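Transforming growth factor beta (TGF-beta) signalling in the uterine stroma of the mouse was described through 10 genes, taken by symbol from the count tables: the ligands Tgfb1, Tgfb2 and Tgfb3, the receptors Tgfbr1, Tgfbr2 and Tgfbr3, and the latent TGF-beta binding proteins Ltbp1, Ltbp2, Ltbp3 and Ltbp4. All 10 were found among the 23420 gene symbols of the tables, and all 10 had enough reads to enter the test. Polyadenylated RNA of mouse uterine stromal cells, all from day 3, was sequenced in 8 libraries, of which 4 carry the genotype label Erbb3f/f and the other 4 the label Erbb3d/d. By mouse naming convention, f stands for a floxed allele and d for its Cre-deleted form, but the labels give neither the Cre line nor the event from which the day is counted, nor the age or strain of the mice. The labels do not say that the 4 libraries of a genotype came from separate animals, so p-values measure the spread between these libraries, which may be technical.

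TGF-beta ligands are secreted in an inactive form, in which the mature dimer stays bound to its own cleaved propeptide. Most of this latent complex is tied by disulphide bonds to a latent TGF-beta binding protein (LTBP), which anchors it in the extracellular matrix until integrins, proteases or thrombospondin release the ligand. The free ligand binds the type II receptor, which recruits and phosphorylates the type I receptor, and SMAD proteins carry the signal to the nucleus. In the uterus this pathway is known for its part in stromal differentiation, matrix production and the exchange of signals with the epithelium.

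Between 8578575 and 12854367 reads were assigned to genes per library, and the depth of the genotypes did not differ beyond its spread (two-sided exact permutation test, p = 0.771). Of all entries, 13.6 ± 0.713% were not aligned under Erbb3f/f, against 14.8 ± 0.606% under Erbb3d/d (SD, n = 4 each), with p = 0.0571 in the same exact test. CPM is the read count scaled to the library size. Erbb3, the targeted receptor gene, averaged 9.64 ± 2.24 CPM (SD, n = 4) under the label Erbb3f/f, against 13.9 ± 4.56 CPM (SD, n = 4) under Erbb3d/d, so its count did not fall with the label, and a count over the whole gene cannot show the loss of an exon. Directions therefore follow the labels only. All 13 markers of uterine stroma were detected, with a summed level of 10840 to 13946 CPM under Erbb3f/f and of 8382 to 11203 CPM under Erbb3d/d. Markers of other cells were also present: the summed level was 1192 to 1931 CPM under Erbb3f/f, against 1833 to 3072 CPM under Erbb3d/d, for 19 epithelial markers, and 1945 to 3220 CPM against 3180 to 6615 CPM for 12 smooth muscle markers. With edgeR's quasi-likelihood test 0 of 14598 genes reached an adjusted p under 0.05, while 1695 genes, or 11.6%, had an unadjusted p under 0.05. Erbb3 had a log2 fold change, Erbb3d/d over Erbb3f/f, of 0.53 (edgeR, adjusted p = 0.485). It was 0.02 with the mean of the epithelial markers as a covariate, and 0.97 with that of the smooth muscle markers. The part of these cells in the Erbb3 count was not tested.

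None of the 10 TGF-beta genes passed an adjusted p of 0.05, with edgeR (0.0% of all genes), DESeq2 (1.78%) or limma-voom (0.0%). None passed with the replicate number as a block (0.356% of all genes) or without Erbb3d/d replicate 2 (1.75%). At an unadjusted p under 0.05 there was 1 of 10, Ltbp1, beside 11.6% of all genes tested, a share near the background. Ltbp1 was also the 1 member whose 4 values in the libraries labelled Erbb3d/d all lay above the 4 in Erbb3f/f, where 5.04% of all genes tested had no overlap between the genotypes, 2.56% with Erbb3d/d higher and 2.48% with it lower. The median log2 fold change of the 10 genes, Erbb3d/d over Erbb3f/f, was 0.05, and that of all genes tested was -0.01. The 4 LTBP genes pointed in different directions, with Ltbp1 and Ltbp2 at 0.55 and 0.93 and Ltbp3 and Ltbp4 at -0.18 and -0.24. The plot of the 10 genes by library shows the values behind these statements.

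**Figure D1:**
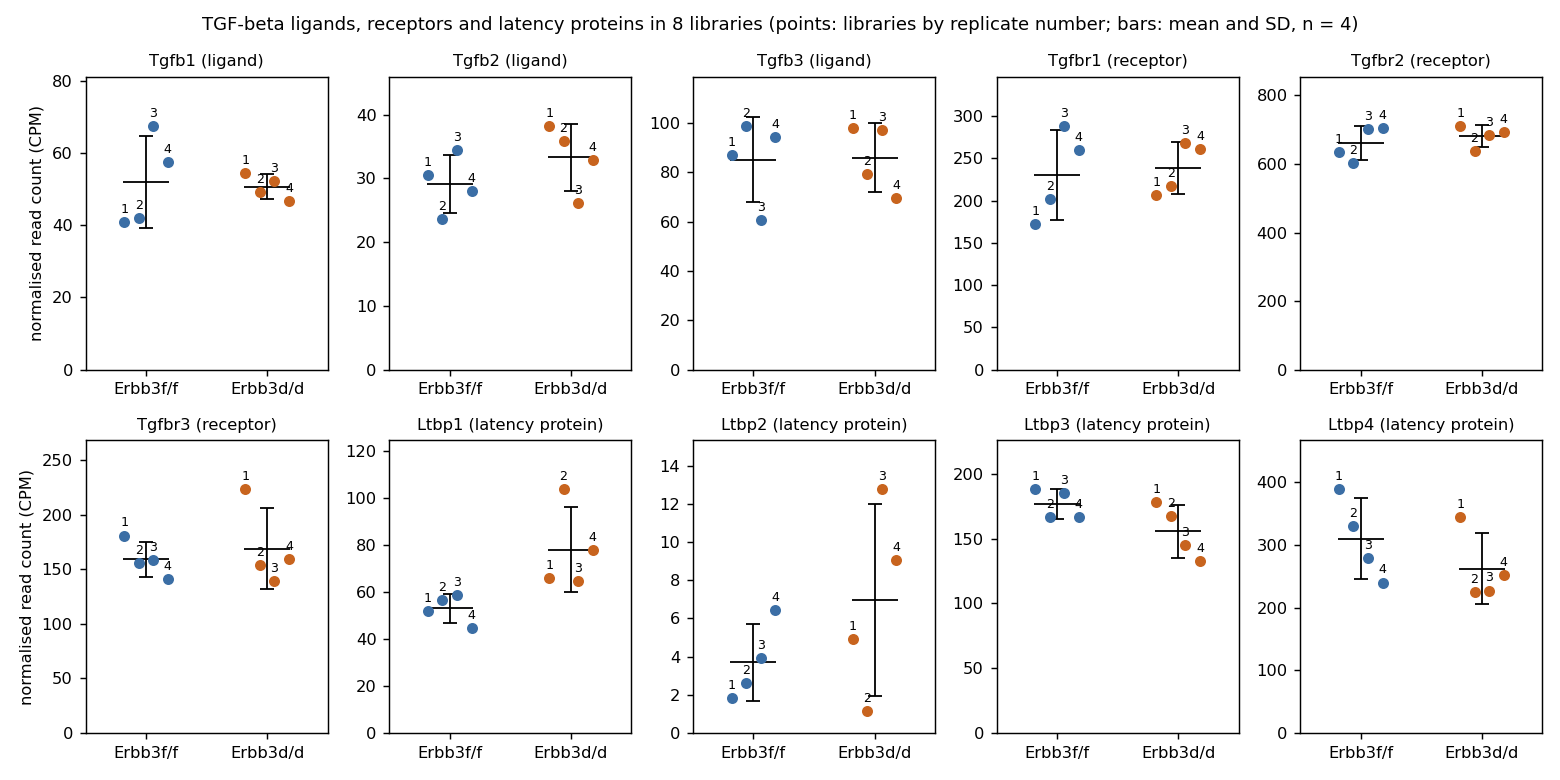
Normalised read count (CPM, y axes from 0) of the 10 TGF-beta genes in the libraries labelled Erbb3f/f (blue) and Erbb3d/d (orange). Each point is a library with its replicate number, and bars give the mean and SD of 4 libraries. The genotypes are apart for Ltbp1, with Erbb3f/f values up to 58.7 CPM and Erbb3d/d values from 64.4 CPM, and they overlap for the other 9 genes.

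Among the ligands, Tgfb1 is the form made by many cell types, stromal and immune cells among them. It lies on chromosome 7 at 25687002 to 25705077 (GRCm38, GENCODE vM21) in 8 merged exons. Its level was 40.9, 42.1, 67.5 and 57.4 CPM in replicates 1 to 4 of Erbb3f/f, against 54.5, 49.1, 52.2 and 46.8 CPM in Erbb3d/d replicates 1 to 4. All Erbb3d/d values fell within the range of Erbb3f/f, which held both the highest and the lowest library. Erbb3d/d over Erbb3f/f gave a log2 fold change of -0.04, with a 95% interval of -0.39 to 0.31 (edgeR, adjusted p = 0.945). The spread within Erbb3f/f was the wider one, with a coefficient of variation of 24.6% against 6.74% in Erbb3d/d. That difference in spread was not tested.

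Tgfb2, on chromosome 1 at 186622792 to 186705989, encodes a ligand that binds the type II receptor weakly without the co-receptor betaglycan. Its level was 30.5, 23.6, 34.5 and 28.0 CPM in replicates 1 to 4 of Erbb3f/f, against 38.2, 35.9, 26.2 and 32.8 CPM in Erbb3d/d. The highest 2 libraries were Erbb3d/d replicates 1 and 2, but Erbb3d/d replicate 3 lay below 3 of the Erbb3f/f libraries. The log2 fold change was 0.19 (95% interval -0.16 to 0.53; edgeR, adjusted p = 0.674). It stayed above 0 in all 17 alternative analyses, from 0.11 to 0.44, without passing the threshold in any. The value of 0.44 came with the mean of the epithelial markers as a covariate, at an unadjusted p of 0.0429 and adjusted p = 0.9998 in edgeR.

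Tgfb3, on chromosome 12 at 86056745 to 86079041, encodes the third ligand, with 679 to 1232 reads per library. Its level was 87.1, 98.9, 60.7 and 94.2 CPM in replicates 1 to 4 of Erbb3f/f, against 98.1, 79.2, 97.1 and 69.5 CPM in Erbb3d/d. The genotype means, 85.2 ± 17.1 and 86.0 ± 14.0 CPM (SD, n = 4 each), were almost the same. Its log2 fold change was 0.01, with a 95% interval of -0.35 to 0.38 (edgeR, adjusted p = 0.983). The low values were those of Erbb3f/f replicate 3 and Erbb3d/d replicate 4.

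Levels of different genes were compared per length, as CPM per kilobase of merged exon (RPKM). Over the 8 libraries Tgfb3 had 25.3 ± 4.27 RPKM, Tgfb1 10.2 ± 1.72 RPKM and Tgfb2 5.39 ± 0.874 RPKM (SD, n = 8). On this scale Tgfb3 made up 61.8 ± 9.58% of the summed ligand level under Erbb3f/f, against 61.4 ± 3.52% under Erbb3d/d (SD, n = 4 each). Erbb3f/f replicate 3 departed from the rest with 48.1% Tgfb3 and 35.9% Tgfb1, while the other 7 libraries had 57.9% to 70.2% Tgfb3. The distance between Tgfb3 and Tgfb1 depended on the gene length used. The merged exons of Tgfb1 span 5042 bases, but its longest coding transcript has 2175, and with the latter length, an alternative added after the data were seen, Tgfb1 reached a mean of 23.6 RPKM, and Tgfb3 lay above it in 6 of 8 libraries. Tgfb2 was the lowest ligand with either length.

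Among the receptors, Tgfbr2, on chromosome 9 at 116084293 to 116175360, encodes the type II receptor, the kinase that binds the ligand. Its level was 634, 604, 702 and 704 CPM in replicates 1 to 4 of Erbb3f/f, against 711, 637, 685 and 693 CPM in Erbb3d/d. It was the least variable member, with the highest library only 1.18 times the lowest, at 5460 to 8937 reads. The log2 fold change of 0.04 had the narrowest interval of the 10 genes, -0.16 to 0.25 (edgeR, adjusted p = 0.888), which corresponds to a fold between 0.892 and 1.19.

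Tgfbr1, on chromosome 4 at 47353222 to 47414931, encodes the type I receptor, the kinase that phosphorylates SMAD2 and SMAD3. Its level was 172, 202, 288 and 260 CPM in replicates 1 to 4 of Erbb3f/f, against 207, 217, 268 and 261 CPM in Erbb3d/d. All Erbb3d/d values fell within the Erbb3f/f range. Its log2 fold change was 0.05 (95% interval -0.31 to 0.41; edgeR, adjusted p = 0.931). Erbb3f/f held both the lowest library, replicate 1, and the highest, replicate 3. With the mean of the smooth muscle markers as a covariate the log2 fold change of Tgfbr1 became 0.45, at an unadjusted p of 0.0264 and adjusted p = 0.548 in edgeR.

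Tgfbr3, on chromosome 5 at 107106570 to 107289629, encodes betaglycan, a co-receptor without a kinase that presents TGF-beta 2 to the type II receptor and also binds inhibins. Its level was 181, 156, 158 and 141 CPM in replicates 1 to 4 of Erbb3f/f, against 223, 154, 139 and 159 CPM in Erbb3d/d. Erbb3d/d replicate 1 was the highest library and Erbb3d/d replicate 3 the lowest. The log2 fold change was 0.09 (95% interval -0.23 to 0.40; edgeR, adjusted p = 0.846), and without Erbb3d/d replicate 1 it was -0.08. That library also had the highest summed level of smooth muscle markers, 6615 CPM, against 1945 to 4081 CPM in the other 7. The part of smooth muscle RNA in this value was not tested. In bulk RNA a change in the number of cells of a type and a change in RNA per cell cannot be told apart.

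Per kilobase, Tgfbr2 was the most abundant of the 10 genes, at 82.0 ± 4.93 RPKM over the 8 libraries, with every library above every value of any other member. Tgfbr1 followed among the receptors with 35.9 ± 6.17 RPKM (SD, n = 8), and Tgfbr3 was the lowest of the 3 on average. The ratio of Tgfbr1 to Tgfbr2 was 0.434 ± 0.0740 under Erbb3f/f, against 0.439 ± 0.0560 under Erbb3d/d (SD, n = 4 each), so the type I receptor transcript stood at less than the type II transcript in each library. Tgfbr2 held 55.7% to 58.9% of the summed receptor level in all 8 libraries.

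**Figure D2:**
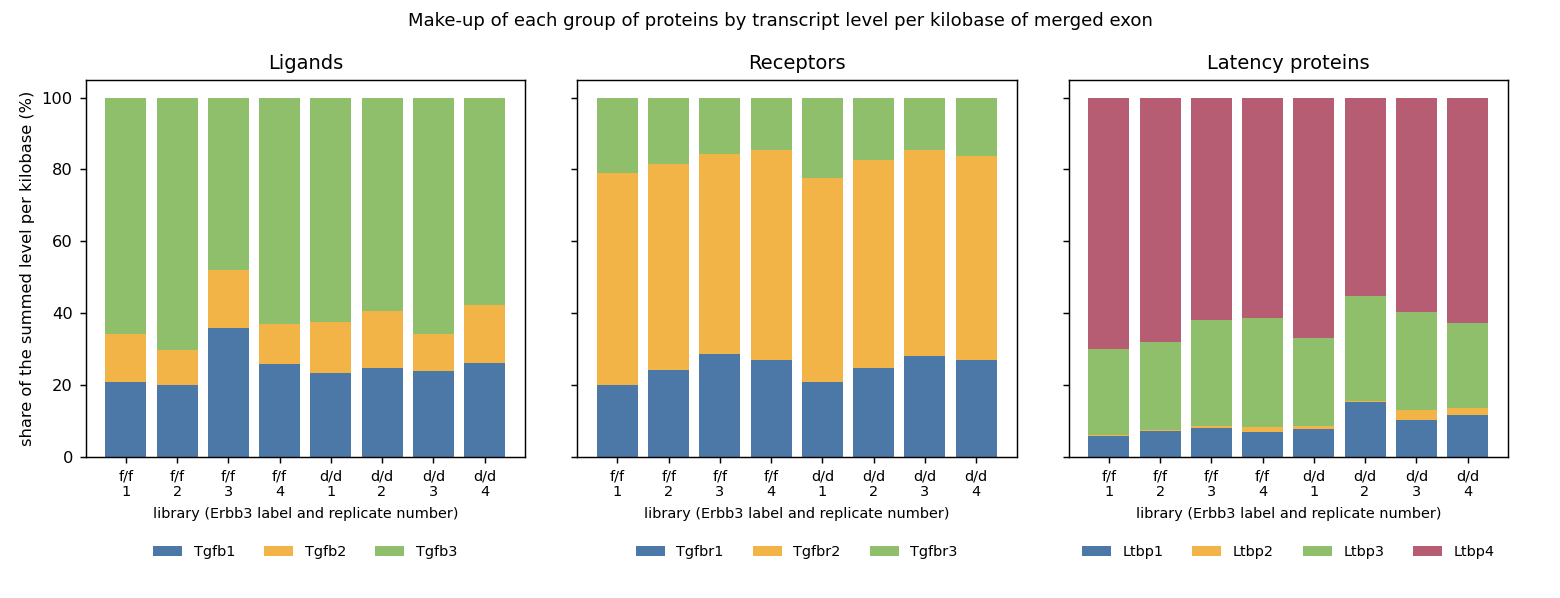
Share (%, y axis from 0) of each gene in the summed level per kilobase of merged exon of the ligands, the receptors and the latency proteins, in each library. Tgfbr2 holds 55.7% to 58.9% of the receptor level throughout, Tgfb3 drops to 48.1% in Erbb3f/f replicate 3, and Ltbp1 reaches 15.3% in Erbb3d/d replicate 2.

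The group called latency proteins holds the LTBP genes, and not all LTBPs bind latent TGF-beta. Ltbp1 encodes an LTBP that binds latent TGF-beta 1. It lies on chromosome 17 at 75005568 to 75392512 in 37 merged exons, and RefSeq lists a start site at each of 2 places, from which the annotation begins 2 of its 6 coding transcripts each (within 100 bases). The promoter sequences are shown because Ltbp1 is the member whose genotypes did not overlap and because a count over the whole gene adds up transcripts from both start sites. The next lines give the bases before each start site of Ltbp1, and those of Ltbp2, the most variable member, from RefSeq on GRCm38.p6. Each is written from 5′ to 3′ on the strand of the gene, with annotated exon bases left out. Capitals mark CAGAC, a short site to which SMAD3 and SMAD4 can bind, and GGGCGG, the GC box bound by SP1, on either strand (GTCTG and CCGCCC are their reverse complements).
Ltbp1, outer start site, chr17:75005279-75005528, plus strand: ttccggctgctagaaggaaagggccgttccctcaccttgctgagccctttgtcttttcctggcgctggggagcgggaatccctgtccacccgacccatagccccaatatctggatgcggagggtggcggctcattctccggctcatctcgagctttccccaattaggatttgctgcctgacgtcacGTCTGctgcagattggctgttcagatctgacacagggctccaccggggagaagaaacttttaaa
Ltbp1, inner start site, chr17:75178531-75178780, plus strand: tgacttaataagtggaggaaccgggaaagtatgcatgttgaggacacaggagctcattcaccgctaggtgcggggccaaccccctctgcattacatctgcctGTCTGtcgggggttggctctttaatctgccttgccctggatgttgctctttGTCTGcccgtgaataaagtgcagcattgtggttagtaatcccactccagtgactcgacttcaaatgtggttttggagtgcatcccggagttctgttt
Ltbp2, chr12:84876533-84876741, minus strand: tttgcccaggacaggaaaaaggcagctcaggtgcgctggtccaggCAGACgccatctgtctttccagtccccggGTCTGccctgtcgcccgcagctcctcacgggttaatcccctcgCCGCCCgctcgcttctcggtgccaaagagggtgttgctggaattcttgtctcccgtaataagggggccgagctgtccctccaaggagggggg

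The outer Ltbp1 window held 1 CAGAC match, the inner one, which lies within the gene, 2, and the Ltbp2 window 2, with 1 GC box in Ltbp2 alone of these. CAGAC is a short and common word, present on either strand in 42.2% of all 32851 RefSeq windows of 250 bases before a start site. Among the 12 windows available for 8 of the 10 genes, some of them overlapping, 7 held it. GGGCGG was present in 32.7% of all windows and in 6 of the 12, with the most matches, 7, in a window of Ltbp4. An AP-1 site, TGACTCA, was present in 4.46% of all windows and in 0 of the 12, and TATAAA in 12.4% and in 1 of the 12, that of Tgfb2. A match of letters is a description, and binding was not measured.

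The level of Ltbp1 was 51.8, 56.5, 58.7 and 44.7 CPM in Erbb3f/f replicates 1 to 4, from 532, 540, 747 and 395 reads. The Erbb3d/d libraries, in the same order, had 65.8, 104, 64.4 and 77.6 CPM, from 670, 888, 817 and 884 reads. Every library labelled Erbb3d/d lay above every library labelled Erbb3f/f, and Erbb3d/d replicate 2 was far above the rest of its group. The means were 52.9 ± 6.21 CPM and 77.8 ± 18.1 CPM (SD, n = 4 each), a fold of 1.47 with a 95% interval of 1.15 to 1.87. The log2 fold change was 0.55 (SE 0.16), at an unadjusted p of 0.00504 (edgeR, adjusted p = 0.284). An exact permutation test gave p = 0.0286, the smallest that 4 against 4 libraries allow and the value of any gene with no overlap. The difference did not pass the threshold over all genes tested. All 17 alternative analyses gave the same direction, but they reuse these libraries and add no separate support. Without Erbb3d/d replicate 2 the log2 fold change was 0.39 and the adjusted p 0.123, without any other library it was 0.48 to 0.64, and DESeq2 gave an adjusted p of 0.0687. With the epithelial or the smooth muscle marker mean as a covariate it was 0.80 and 0.68, with adjusted p = 0.9998 and 0.517 in edgeR. The part of these cells in the difference was not tested.

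Ltbp2, on chromosome 12 at 84783212 to 84876532, encodes an LTBP that does not bind latent TGF-beta but sits on elastic microfibrils. It had few reads, 19, 25, 50 and 57 in replicates 1 to 4 of Erbb3f/f, against 50, 10, 162 and 103 in Erbb3d/d. The level was 1.85, 2.62, 3.93 and 6.44 CPM under Erbb3f/f, against 4.91, 1.17, 12.8 and 9.04 CPM under Erbb3d/d. Erbb3d/d replicates 3 and 4 were the highest libraries and Erbb3d/d replicate 2 the lowest, so the label did not order them. The highest value was 10.9 times the lowest, the widest range of the 10 genes. The log2 fold change of 0.93 had a 95% interval of -0.46 to 2.32 (edgeR, adjusted p = 0.591), and it was 0.47 without Erbb3d/d replicate 3 and 1.28 without Erbb3d/d replicate 2, where the unadjusted p was 0.0160 and edgeR's adjusted p = 0.152.

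Erbb3d/d replicates 3 and 4, with most Ltbp2, had summed epithelial marker levels of 3063 and 3072 CPM, and the other 6 libraries had 1192 to 1931 CPM. With the mean of the epithelial markers as a covariate the log2 fold change of Ltbp2 turned to -0.40, and with that of the smooth muscle markers it was 1.69. The part of epithelial RNA in these values was not tested. In the annotation 764 bases, or 9.34%, of the Ltbp2 exons are shared with a gene on the other strand, D030025P21Rik. The libraries do not keep the strand, so reads there cannot be assigned by strand, and how they were counted is not given.

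Ltbp3, on chromosome 19 at 5740904 to 5758532, encodes an LTBP known for its part in tooth and bone development. Its level was 188, 167, 186 and 167 CPM in replicates 1 to 4 of Erbb3f/f, against 178, 167, 146 and 133 CPM in Erbb3d/d. Erbb3d/d replicates 3 and 4 lay below all Erbb3f/f libraries, while replicates 1 and 2 lay among them. The means were 177 ± 11.8 and 156 ± 20.5 CPM (SD, n = 4 each), and the log2 fold change was -0.18 (95% interval -0.41 to 0.05; edgeR, adjusted p = 0.528). The same 2 libraries had the lowest summed stromal markers, 9927 and 8382 CPM against 10840 to 13946 CPM in the other 6, and adjusting for the epithelial marker mean gave a log2 fold change of 0.02. Adjusting for the smooth muscle marker mean gave -0.25. Without Erbb3d/d replicate 4 it was -0.11, and without Erbb3d/d replicate 1 it was -0.25 at an unadjusted p of 0.0397 (edgeR, adjusted p = 0.433). The part of a lower stromal share in this value was not tested.

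Ltbp4, on chromosome 7 at 27305136 to 27337692, encodes an LTBP that binds latent TGF-beta 1 weakly and takes part in elastic fibre assembly. Its level was 389, 330.5, 280 and 240 CPM in replicates 1 to 4 of Erbb3f/f, against 344, 225, 227 and 252 CPM in Erbb3d/d. Erbb3d/d replicates 2 and 3 lay below all Erbb3f/f libraries and replicate 1 above 3 of them. A log2 fold change of -0.24 was fitted (95% interval -0.63 to 0.15; edgeR, adjusted p = 0.621). It stayed below 0 in all 17 alternatives, from -0.69 with the smooth muscle marker mean as a covariate, at an unadjusted p of 0.00123 and adjusted p = 0.439 in edgeR, to -0.10 with the epithelial marker mean. It was -0.10 without Erbb3f/f replicate 1, and -0.40 without Erbb3d/d replicate 1 at an unadjusted p of 0.0285 (edgeR, adjusted p = 0.407).

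Per kilobase the 4 LTBP genes spanned a wide range, 44.2 ± 9.50 RPKM for Ltbp4, 18.3 ± 2.10 RPKM for Ltbp3, 6.12 ± 1.71 RPKM for Ltbp1 and 0.653 ± 0.483 RPKM for Ltbp2 (SD, n = 8). Their order was the same with the longest coding transcript as length, although that length gave means of 32.1 RPKM for Ltbp3 and 9.80 RPKM for Ltbp1. On merged exons the order held in each of the 8 libraries. Ltbp4 made up 65.4 ± 4.28% of the summed LTBP level in Erbb3f/f and 61.2 ± 4.92% in Erbb3d/d. Ltbp1 made up 6.87 ± 0.925% under Erbb3f/f, against 11.3 ± 3.18% under Erbb3d/d (SD, n = 4 each), with 5.64% to 7.88% against 7.73% to 15.3%, so that the lowest Erbb3d/d share lay just under the highest Erbb3f/f share. The ratio of Ltbp4 to Ltbp1 was 7.88 to 12.4 in Erbb3f/f and 3.60 to 8.65 in Erbb3d/d. These shares are a description and were not tested.

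**Figure D3:**
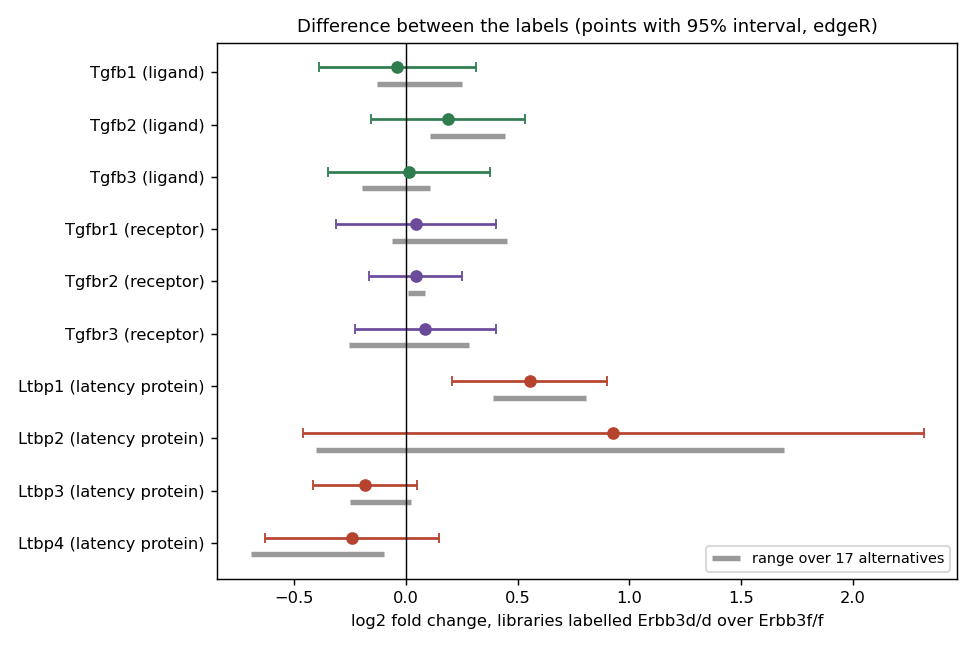
Log2 fold change of each gene, libraries labelled Erbb3d/d over Erbb3f/f (x axis), with its 95% interval from edgeR, and in grey the range over 17 alternative analyses. The interval of Ltbp1, 0.21 to 0.90, lies above 0, those of the other 9 genes include 0, and the interval of Ltbp2, -0.46 to 2.32, is the widest.

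Ordered by level per kilobase over all 8 libraries, the 10 genes ran from Tgfbr2 through Ltbp4, Tgfbr1, Tgfb3, Tgfbr3, Ltbp3, Tgfb1, Ltbp1 and Tgfb2 to Ltbp2. Neighbours in this order were apart in all libraries, with no overlap of their ranges, for Tgfbr2 and Ltbp4, Tgfbr3 and Ltbp3, Ltbp3 and Tgfb1, and Tgfb2 and Ltbp2. Ltbp4 lay above Tgfbr1 in 4 of 8 libraries, Tgfb3 above Tgfbr3 in 3 of 8 and Ltbp1 above Tgfb2 in 4 of 8, so these pairs did not differ beyond their spread on this length. The 4 libraries with more Ltbp1 than Tgfb2 were 1 of Erbb3f/f and 3 of Erbb3d/d. Tgfbr1 lay above Tgfb3, and Tgfb1 above Ltbp1, in 8 of 8 libraries, although their ranges overlapped. With the longest coding transcript as length Ltbp3 moved up 2 places and Tgfb3 down 2, and the other 8 genes kept their place. With that length Ltbp1 lay above Tgfb2 in 8 of 8 libraries and Ltbp4 above Tgfbr1 in 6 of 8.

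The members did not vary as a block across libraries. Erbb3f/f replicate 3 had the highest Tgfb1 and Tgfbr1 and the lowest Tgfb3 of all libraries. It also had the highest summed immune markers, 2845 CPM against 1190 to 2042 CPM in the other 7, over the 11 of 12 listed markers in the tables, together with the lowest epithelial and smooth muscle sums. The part of these cells in the values was not tested. Without this library the log2 fold change of Tgfb1 was 0.11 and that of Tgfb3 was -0.12. Erbb3d/d replicate 1 had the highest Tgfb2, Tgfbr2 and Tgfbr3, and Erbb3d/d replicate 2 the highest Ltbp1 with the lowest Ltbp2 and Ltbp4. The heat map of members and marker lists sets these libraries side by side.

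**Figure D4:**
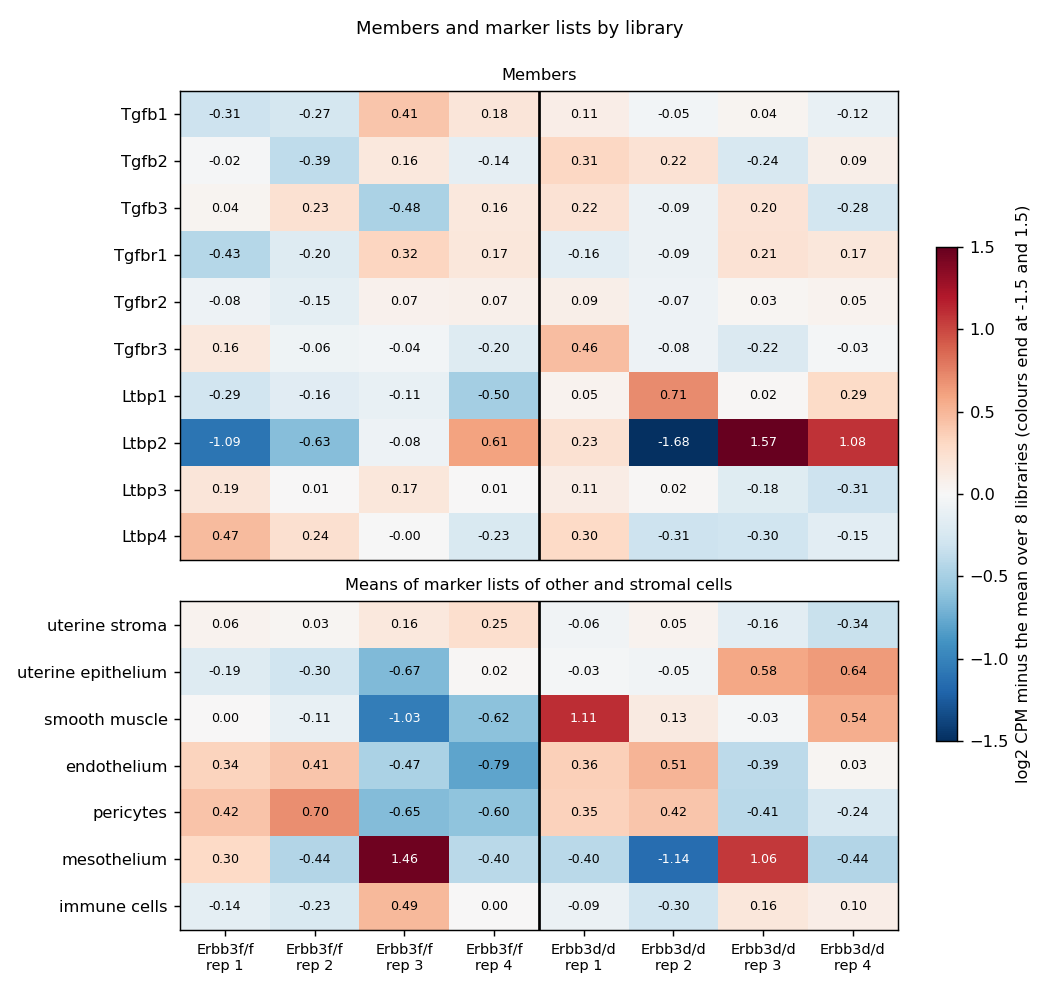
Log2 CPM of the 10 genes (top) and mean log2 CPM of 7 marker lists (bottom) in each library, each row less its mean over the 8 libraries, with the line between the genotypes. Ltbp1 is the row with the 4 lowest values on the Erbb3f/f side, and Ltbp2 is high in Erbb3d/d replicates 3 and 4, where epithelial markers are high too.

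For the most abundant ligand, receptor and LTBP by CPM, the tested genes with the most similar profile over the 8 libraries were picked by Pearson's r of log2 CPM. They were Ccnyl1 (r = 0.992), Crabp1 and Uqcr10 for Tgfb3, Fam101a (r = 0.974), Slc19a3 and Lyl1 for Tgfbr2, and Ap2a2 (r = 0.973), Cpsf4l and Nkx6-2 for Ltbp4. Among the 14598 genes tested, 14, 46 and 20 genes had an r over 0.9 with Tgfb3, Tgfbr2 and Ltbp4. They describe these libraries only, and the genes share the depth and makeup of each library.

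The rest of the pathway was read from 3 lists. The list of SMAD transmission and feedback had 19 genes, of which edgeR called 0 at an adjusted p under 0.05, while 3 had an unadjusted p under 0.05 and were higher in Erbb3d/d, and 1 was lower. All genes tested had 6.64% and 4.97%. In the list 1 gene had no overlap between the genotypes, beside 5.04% of all genes tested. The median log2 fold change was 0.07. Smad6, an inhibitory SMAD, had 24.6 ± 1.65 CPM under Erbb3f/f, against 34.7 ± 5.59 CPM under Erbb3d/d (SD, n = 4 each), with no overlap, a log2 fold change of 0.50 (edgeR, adjusted p = 0.279). Tgif1, a repressor that binds SMAD2, had 76.0 ± 10.4 and 112 ± 25.7 CPM (log2 fold change 0.56), and Tgfbrap1, a protein that binds the TGF-beta receptors, 188 ± 29.3 and 138 ± 21.3 CPM (log2 fold change -0.45). Ski and Skil, repressors of SMAD target genes, were the most abundant of the list, with 395 ± 16.8 and 379 ± 15.6 CPM for Ski and 190 ± 41.3 and 229 ± 43.6 CPM for Skil. Without Erbb3d/d replicate 2, edgeR called Tgif1 (adjusted p = 0.0345), beside 1.75% of all genes tested. With the epithelial marker mean as a covariate, 0 of the 19 had an unadjusted p under 0.05, beside 3.51% of all genes tested. The log2 fold changes were then 0.34 for Smad6, 0.30 for Tgif1 and -0.33 for Tgfbrap1. With the smooth muscle marker mean there were 6, beside 8.62% of all genes tested. The part of epithelial or smooth muscle RNA in these values was not tested.

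Genes for storage and release of latent TGF-beta in the matrix numbered 22, of which 21 were in the tables and tested. Of these, edgeR called 0 at an adjusted p under 0.05, and at an unadjusted p under 0.05 there were 2 higher and 4 lower, beside 6.64% and 4.97% of all genes tested, with a median log2 fold change of 0.01. The genotypes did not overlap for 1 gene higher and 2 lower in Erbb3d/d, beside 2.56% and 2.48% of all genes tested. Itgb8 encodes the beta subunit of an integrin that activates latent TGF-beta. It had 28.9, 27.0, 28.4 and 20.7 CPM in replicates 1 to 4 of Erbb3f/f, against 11.1, 18.5, 12.7 and 14.2 CPM in Erbb3d/d. All Erbb3d/d values lay below those of Erbb3f/f, and the log2 fold change was -0.90 (SE 0.18; edgeR, adjusted p = 0.183). Bgn, which encodes the proteoglycan biglycan, a binder of TGF-beta, had 682 ± 29.5 and 489 ± 59.6 CPM (SD, n = 4 each), also with no overlap (log2 fold change -0.48; edgeR, adjusted p = 0.195). Thbs1, encoding thrombospondin 1, which releases the ligand from its propeptide, lay wholly above instead, with 999 ± 179 and 1418 ± 203 CPM (log2 fold change 0.51; edgeR, adjusted p = 0.294). Mmp2, a gelatinase that can cleave the latent complex and one of the most abundant of the list, had 1184 ± 175 and 1176 ± 98.4 CPM. DESeq2 called Itgb8, Thbs1 and Bgn, with adjusted p-values of 0.00231, 0.0498 and 0.00413. Without Erbb3d/d replicate 2, edgeR called Itgb8 (adjusted p = 0.0218), Bgn (0.0401) and Lrrc32, which encodes a cell surface anchor of latent TGF-beta. Lrrc32 was higher in Erbb3d/d, at a log2 fold change of 0.45 over all 8 libraries, and overlapped between the genotypes. Of all genes, DESeq2 called 1.78%, and edgeR 1.75% without Erbb3d/d replicate 2.

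Fibroblast genes known to respond to TGF-beta numbered 22, of which 21 were tested. Of these, edgeR called 0 at an adjusted p under 0.05, 5 were higher and 0 lower at an unadjusted p under 0.05, beside 6.64% and 4.97% of all genes tested, and the median log2 fold change was 0.17. Bhlhe40, a transcriptional repressor, had 153 ± 33.2 CPM under Erbb3f/f against 238 ± 40.8 CPM under Erbb3d/d, and Cdkn1a, the cell cycle inhibitor p21, had 46.4 ± 11.7 and 96.1 ± 31.6 CPM (SD, n = 4 each). Their log2 fold changes were 0.64 and 1.05 (edgeR, adjusted p = 0.279 and 0.281). Timp3, an inhibitor of metalloproteinases, had 329 ± 30.9 and 409 ± 37.6 CPM with no overlap, but 21.3% of its exon length is shared with Syn3 on the other strand. It was the 1 gene of the list with no overlap, beside 5.04% of all genes tested. The abundant matrix genes Col1a1 and Col3a1 had log2 fold changes of -0.04 and -0.20 and overlapped between the genotypes. Both Bhlhe40 and Cdkn1a were called by DESeq2 (adjusted p = 0.0370 and 0.0111), with the replicate number as a block (0.0406 and 0.0355) and in edgeR without Erbb3d/d replicate 2 (0.0401 and 0.0143), which also called Fn1, lower in Erbb3d/d at a log2 fold change of -0.43 over all 8 libraries. In the same order, these fits called 1.78%, 0.356% and 1.75% of all genes. At an unadjusted p under 0.05, 13 of 19 epithelial and 11 of 12 smooth muscle markers were higher in Erbb3d/d, and edgeR called 0 of either list at an adjusted p under 0.05. Of 13 stromal markers, 5 were lower and 0 higher at an unadjusted p under 0.05, beside 4.97% and 6.64% of all genes tested. None of the stromal markers passed an adjusted p of 0.05. The part of all these cells in the values of the responsive fibroblast genes was not tested. With the epithelial marker mean as a covariate 0 of the 21 had an unadjusted p under 0.05, beside 3.51% of all genes tested, and the log2 fold changes were 0.44 for Bhlhe40, 0.86 for Cdkn1a and 0.31 for Timp3. With the smooth muscle marker mean there were 3, Tgfbi, Bhlhe40 and Cdkn1a, beside 8.62% of all genes tested.

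**Figure D5:**
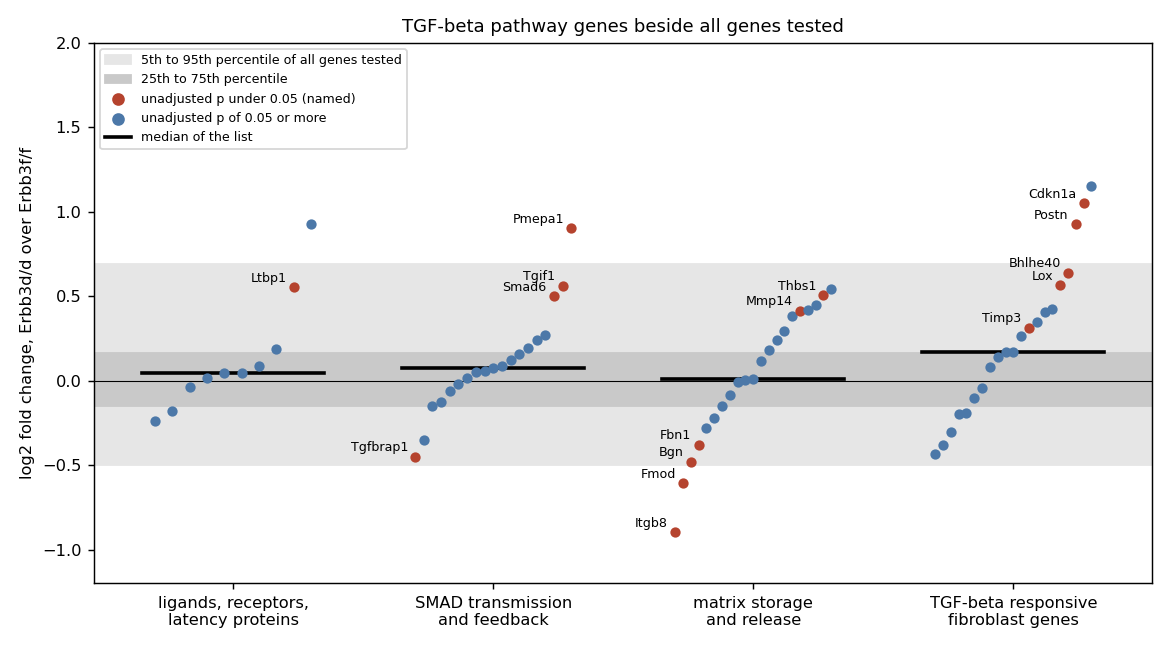
Log2 fold change (y axis) of the 10 TGF-beta genes and of the tested genes of 3 pathway lists, sorted within each list, with the list's median as a line. Genes with an unadjusted p under 0.05 are red and named, edgeR called none at an adjusted p under 0.05, and the grey bands give the percentiles of all genes tested. The medians lie between 0.01 and 0.17, beside -0.01 for all genes tested.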

How the data were processed

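The authors deposited 1 table of raw counts per library, unnormalized and listing 23420 gene symbols. The submitters' processing notes name HISAT2, SAMtools, HTSeq and StringTie and the builds mm10 and GRCm38. Versions, annotation and counting options are not given in the sources used here, nor whether a count is a read or a pair. Per the labels' protocols the libraries were poly(A)-selected and non-directional. The 5 lines naming no gene were left out of library sizes. Genes took 27.0% to 29.1% of all entries, and 48.3% to 50.8% were entered as belonging to no counted feature.

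Genotypes were compared with edgeR 4.0.16 under R 4.3.3 (filterByExpr, TMM, glmQLFit with robust estimates, glmQLFTest, genotype only) and p-values were adjusted over all 14598 genes tested by Benjamini-Hochberg at 0.05. CPM uses the TMM-scaled library size. Intervals come from the moderated standard error. Exact permutation tests were two-sided, over 70 assignments, on log2(CPM + 0.5) for genes. DESeq2 1.42.0 and limma 3.58.1 (voom) were alternatives, with other scalings and filters, a replicate block, each library left out and marker covariates. The edgeR script was tested on simulated data. Lengths and positions came from GENCODE vM21, in which 92.8% of symbols matched 1 gene.

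The members and lists were chosen with earlier results of these data known. Named were the members, Erbb3, and per list the 3 genes of smallest p and the 2 most abundant, or all called genes; Lrrc32 and Fn1 are named beyond this as called in an alternative. Marker lists for endothelium, pericytes and mesothelium were read beside the others.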

Additional observations from a re-analysis of the deposited data

How the results depend on the processing

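None of the 10 genes was called in any of 17 alternatives. Under the other 2 scalings Ltbp1 was the 1 member with no overlap, beside at most 5.12% of all genes. Without Erbb3d/d replicate 2 that share was 16.1%, and without any other single library it was 6.27% to 9.28%. On the first principal component of log2 CPM (36.7% of the variance), Erbb3d/d replicate 2 stood at -19.8. The Erbb3f/f libraries stood at -32.2 to -2.89 and the other Erbb3d/d libraries at 11.9 to 48.0. Counts of called genes moved from 0 to 270 with DESeq2, to 52 with the replicate number as a block and to between 0 and 259 without single libraries, where Erbb3d/d replicate 2 alone gave calls. As shares of all genes these were 1.78%, 0.356% and at most 1.75%. Of the lists, matrix storage and release had 3 calls with DESeq2 and 0 to 3 without single libraries, responsive fibroblast genes 2 with DESeq2, 2 with the replicate block and 0 to 3, and SMAD transmission 0 to 1. The replicate block changed no other call. Same-numbered libraries correlated at 0.0959 to 0.221 in their deviations, and differently numbered ones at -0.296 to 0.302. The labels do not say that the numbers pair libraries, and the main fit did not use them. Whether equal numbers mark a shared batch was not tested.

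Differences of 6 genes changed sign under some alternatives, among them that of Ltbp2, the largest of the 10. With the epithelial marker mean as covariate the log2 fold change was 0.12 for Tgfb1, -0.10 for Tgfb3, -0.0307 for Tgfbr1, -0.40 for Ltbp2 and 0.0216 for Ltbp3. With the smooth muscle mean it was 0.25 for Tgfb1, -0.19 for Tgfb3 and -0.26 for Tgfbr3. Without single libraries it ran from -0.13 to 0.11 for Tgfb1, -0.12 to 0.11 for Tgfb3, -0.0601 to 0.17 for Tgfbr1 and -0.0757 to 0.17 for Tgfbr3. The cause was not tested. Depth limits Ltbp2 most, with 10 to 162 reads.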
